A study of Homo sapiens with 6 samples.

Results

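NCOR1, SIN3A, SIN3B, RCOR1, KDM1A, MTA1, MTA2, CHD4 and RBBP4 encode subunits of the corepressor complexes that carry histone deacetylases (HDACs) to chromatin. These 9 genes were taken by name through their NCBI Gene IDs, with no use of their values, and all 9 were found among the 16623 genes measured. RNA was sequenced from MDA-MB-231, a triple-negative breast cancer cell line, after 24 h or 48 h with the HDAC inhibitor PCI-24781 at 100 nM (called the lower dose here) or 200 nM (the higher dose), or with its solvent DMSO. Each of the 6 conditions had 1 library, so the differences below have no replicate check and none was tested. The values are FPKM, the fragments of a gene per unit of transcript length and of sequencing depth. A change is the difference in log2(FPKM + 1) from the DMSO library taken at the same hour.

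HDAC1, HDAC2 and HDAC3 work inside large protein assemblies. In the NCoR complex, NCOR1 is the scaffold that docks on nuclear receptors and activates HDAC3. SIN3A and SIN3B are scaffolds that hold HDAC1 or HDAC2 and are brought to genes by sequence-specific repressors. CoREST joins RCOR1 to HDAC1 or HDAC2 and to KDM1A (LSD1), a demethylase of histone H3 lysine 4, and acts with the neuronal gene silencer REST. NuRD couples deacetylation to nucleosome remodelling: CHD4 is its ATPase, MTA1 and MTA2 are the scaffolds that bind HDAC1 or HDAC2, and RBBP4 binds histones. RBBP4 is shared with the SIN3 complex and with Polycomb repressive complexes. PCI-24781 blocks the zinc-dependent catalytic site of HDACs, and none of the 9 genes encodes an HDAC.

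With the higher dose for 24 h, the NuRD subunits RBBP4, MTA2 and CHD4 were lower than in the matched DMSO library, at 0.64, 0.676 and 0.70 times its FPKM, and KDM1A was higher, at 1.24 times. Of all tested genes, 6.85%, 8.48% and 10.3% had a change below those of RBBP4, MTA2 and CHD4. From the 48 h DMSO library the log2 change of MTA2 was only -0.12. A 2-fold change was seen for none of the 9 genes in any of the 4 comparisons with PCI-24781. Of all genes tested, 1.48% did so with the lower dose and 5.94% with the higher dose after 24 h, and 0.469% and 0.266% after 48 h. With a 1.5-fold threshold, which 6.8%, 20.1%, 2.26% and 1.99% of tested genes passed in that order, RBBP4 with the higher dose for 24 h was the single call among the 9. In that comparison, 7.58% of tested genes were at least 1.5-fold lower. Genes were tested where either library of a comparison had an FPKM of at least 1, which the 9 genes passed in all comparisons.

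The promoters of RBBP4 and KDM1A are shown because these genes had the largest decrease and the largest increase of the 9 with the higher dose for 24 h. Each run gives the 250 bases before the RefSeq start on GRCh38.p14, on the plus strand, at chr1:32650958-32651207 for RBBP4 and chr1:23019218-23019467 for KDM1A. Capitals mark GC boxes (GGGCGG) and CCAAT boxes (CCAAT) on either strand.
RBBP4: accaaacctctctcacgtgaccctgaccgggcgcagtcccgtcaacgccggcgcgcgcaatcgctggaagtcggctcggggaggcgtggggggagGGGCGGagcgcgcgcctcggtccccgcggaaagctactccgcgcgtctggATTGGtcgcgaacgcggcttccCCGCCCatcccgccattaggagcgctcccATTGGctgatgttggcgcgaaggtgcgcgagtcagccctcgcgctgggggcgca
KDM1A: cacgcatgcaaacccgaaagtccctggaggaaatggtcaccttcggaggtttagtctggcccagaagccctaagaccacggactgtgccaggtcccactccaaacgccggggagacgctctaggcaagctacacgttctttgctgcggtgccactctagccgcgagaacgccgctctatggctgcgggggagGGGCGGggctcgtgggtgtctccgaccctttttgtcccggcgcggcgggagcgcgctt
The RBBP4 window held 2 GC boxes and 2 CCAAT boxes, and the KDM1A window held 1 GC box and no CCAAT box. Windows at the RefSeq start of the gene were at hand for 7 of the 9 genes, without SIN3B and CHD4. A GC box lay in 6 of the 7 and in 41.7% of 24878 promoters of the same length, and a CCAAT box lay in 3 of the 7 and in 33.4% of the promoters. These 24878 promoters were taken without regard to expression, whereas the 7 genes were all expressed, so the sets are unlike. Further motifs were sought too. The ETS motif ACTTCCGG was found in MTA2 alone of the 7, against 3.69% of promoters, and the TATA box TATAAA in SIN3A alone, against 11.4%. The NRF1, CRE and E2F motifs were found in none of the 7, and in 1.14%, 1.79% and 1.39% of promoters. For MTA2 and SIN3A, the bases just after the start were not found in the transcripts used to check orientation. The 7 windows held between 21 and 37 CpG dinucleotides, with 37 in RBBP4 and 23 in KDM1A, where the median promoter held 10. These matches describe the letters of the windows, and no binding was measured.

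The libraries held between about 16000000 and 18700000 fragments, as read from the spacing of the low values of short genes. By their shortest listed transcript, the 9 genes then had from about 400 to about 6400 fragments in a library, which gives a counting error between 1.25% and 5.0%. That error covers counting only, not the spread between cultures, which was not measured. VIM (1629.38 to 2053.39 FPKM) and CD44 (154.04 to 218.74) were abundant, while ESR1 (at most 0.04), PGR (at most 0.03) and CDH1 (at most 0.39) were near 0. ERBB2, with 13.16 to 21.36 FPKM, and EPCAM, with 2.26 to 4.70, lay between these levels. Of the markers of other cell types, PTPRC stayed between 0.76 and 1.01, PECAM1 between 0.38 and 2.33 and COL1A1 between 1.65 and 6.68. COL1A1 had its highest value with the higher dose for 24 h, and its part in the results was not tested. The DMSO libraries carry the same labels apart from time, yet 2.62% of 11490 genes differed at least 2-fold between them and 10.4% at least 1.5-fold. Changes after 24 h are therefore also given from the 48 h DMSO library for the 9 genes and for several of the other genes and lists. Where they are not given, a direction may turn on it too. In a bulk sample, fewer cells of a kind and less RNA per cell cannot be told apart.

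**Figure D1:**
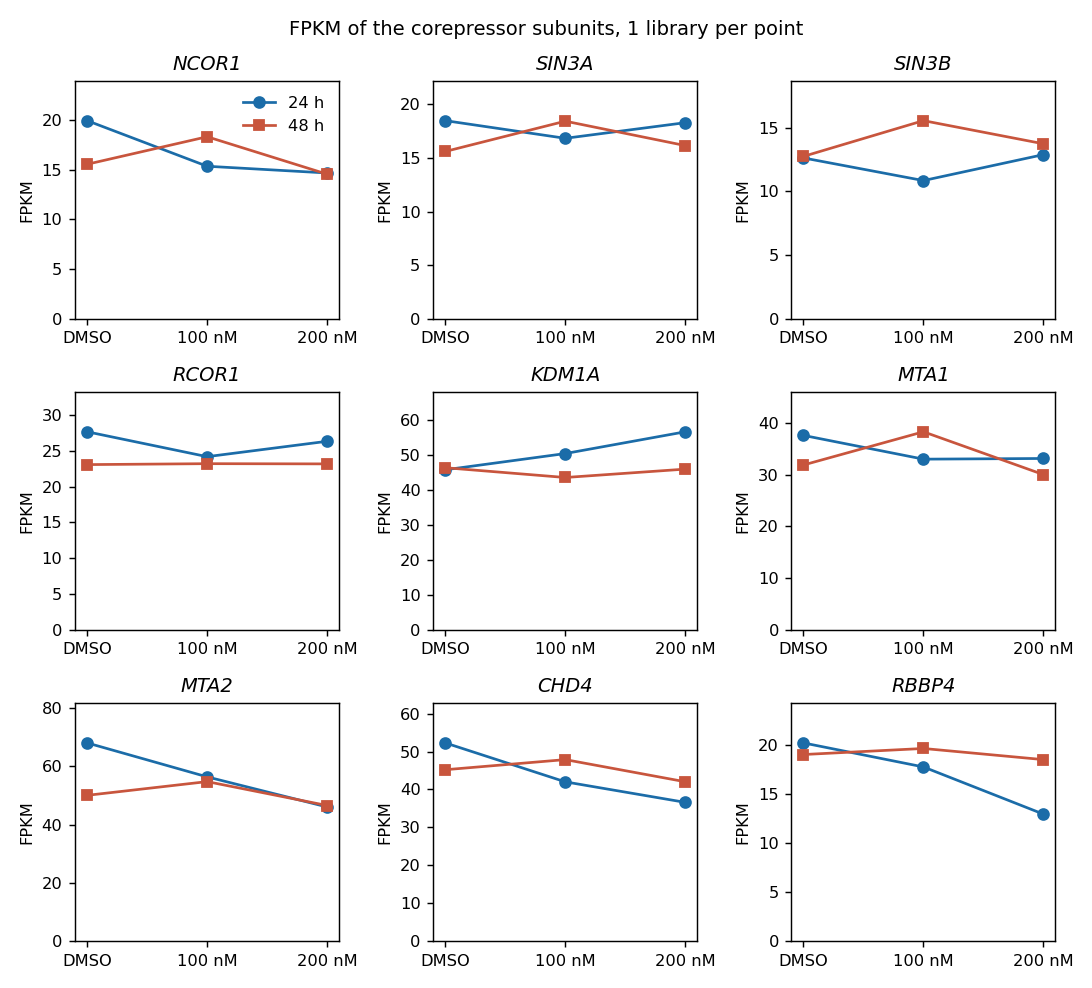
FPKM (y axis, from 0) of each of the 9 genes with DMSO, 100 nM and 200 nM PCI-24781 (x axis) at 24 h (blue circles) and 48 h (red squares), 1 library per point. After 24 h RBBP4 and CHD4 are lowest and KDM1A is highest at 200 nM, while the 48 h points of these 3 genes lie closer together.

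The 9 genes differed in level. Mean FPKM was lowest for SIN3B, at 13.1 ± 1.54 (SD over the 6 conditions, 1 library each), followed by NCOR1 at 16.4 ± 2.21, SIN3A at 17.3 ± 1.27 and RBBP4 at 18.1 ± 2.64. NCOR1, SIN3A and RBBP4 were closer to each other than the larger of these SDs. RCOR1 had 24.6 ± 1.94 and MTA1 34.0 ± 3.28. CHD4 had 44.3 ± 5.43, KDM1A 48.2 ± 4.74 and MTA2 53.7 ± 8.23. CHD4 and KDM1A, and KDM1A and MTA2, differed by less than the larger SD of each pair. The ratio of the highest to the lowest library was between 1.18 for SIN3A and 1.56 for RBBP4. On the log2 scale the range over the 6 libraries was 0.23 to 0.61, beside a median of 0.47 over the 11418 genes whose mean FPKM was 1 or more. A narrower range than that of SIN3A was found for 10.3% of those genes, and a narrower range than that of RBBP4 for 67.7%, with the other 7 subunits between these.

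With the higher dose for 24 h, the 3 largest decreases from the matched DMSO library were those of NuRD subunits. RBBP4 (NCBI Gene ID 5928, chromosome 1 from 33116749 to 33151812, hg19) had 20.26 FPKM with DMSO for 24 h, 17.80 with the lower dose and 12.97 with the higher dose. After 48 h these values were 19.07, 19.69 and 18.55. The library of the higher dose for 24 h was the lowest of the 6 and stood apart from the others, which lay between 17.80 and 20.26. Its log2 change was -0.61, beside -0.18 for the lower dose at that hour, and the 48 h changes were 0.044 and -0.038. Taken from the 48 h DMSO library, it was still -0.52, and the DMSO libraries differed from each other by only -0.083. RefSeq names 7 pseudogenes of RBBP4 that have no value of their own in the files, and SYNC overlaps RBBP4 on the opposite strand, so reads shared with them cannot be told apart.

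CHD4 (NCBI Gene ID 1108, chromosome 12 from 6679248 to 6716599, hg19), the remodelling ATPase, had 52.27 FPKM with DMSO, 41.99 with the lower dose and 36.57 with the higher dose after 24 h. The 48 h libraries held 45.19, 47.86 and 42.01. As for RBBP4, the higher dose for 24 h gave the lowest library. The log2 changes were -0.31 and -0.50 after 24 h and 0.081 and -0.10 after 48 h. From the 48 h DMSO library the higher dose for 24 h was at -0.30, and the DMSO libraries differed by -0.21.

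MTA2 (NCBI Gene ID 9219, chromosome 11 from 62360675 to 62369312, hg19), which had the highest mean FPKM of the 9 genes, depended most on the choice of DMSO library. Its FPKM was 68.09, 56.41 and 46.05 with DMSO and the rising doses for 24 h, and 50.06, 54.78 and 46.56 for 48 h. The 24 h DMSO library was high beside all the others, which lay between 46.05 and 56.41. The log2 change of -0.55 for the higher dose after 24 h was -0.12 from the 48 h DMSO library, and that of -0.27 for the lower dose became 0.17. Between the DMSO libraries MTA2 differed by -0.44, and 5.9% of tested genes were lower than that.

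MTA1 (NCBI Gene ID 9112, chromosome 14 from 105886186 to 105937062, hg19) had 37.62, 33.02 and 33.15 FPKM in the 24 h libraries with DMSO, lower and higher dose, and 31.89, 38.32 and 30.03 in those of 48 h. Its highest value was with the lower dose for 48 h. The log2 changes were -0.18 for either dose after 24 h, then 0.26 and -0.084. From the 48 h DMSO library the 24 h values were 0.049 and 0.054, so MTA1 was lower after 24 h only beside the 24 h DMSO library.

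KDM1A (NCBI Gene ID 23028, chromosome 1 from 23345941 to 23410184, hg19), the demethylase of CoREST, was the only one of the 9 genes higher with both doses than in the 24 h DMSO library. It had 45.84 FPKM with DMSO, 50.49 with the lower dose and 56.73 with the higher dose, and 46.43, 43.63 and 46.03 in the 48 h libraries. The DMSO libraries were nearly equal for this gene, differing by 0.018 on the log2 scale, and the higher dose for 24 h lay above the other 5 libraries. The log2 change was 0.14 for the lower dose and 0.30 for the higher dose, and 0.12 and 0.28 when taken from the 48 h DMSO library. From that library SIN3A, RCOR1 and MTA1 were higher with both 24 h doses as well. After 48 h the change of KDM1A was -0.088 and -0.012, the latter turning just above 0 when the values were rescaled to TPM. Of all tested genes, 74.1% had a change below that of KDM1A with the higher dose for 24 h, so an increase of this size was common.

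RCOR1 (NCBI Gene ID 23186, chromosome 14 from 103058996 to 103196913, hg19), the CoREST scaffold that holds KDM1A, was not higher with either dose than in the 24 h DMSO library. Its FPKM after 24 h was 27.68 with DMSO, 24.20 with the lower dose and 26.35 with the higher dose, and the 48 h values were 23.09, 23.22 and 23.19. The 48 h libraries were within 1.01 times of each other, and all 3 lay under the 24 h libraries. The log2 changes were -0.19 and -0.069 after 24 h, which became 0.065 and 0.18 from the 48 h DMSO library, and the 48 h changes were 0.008 and 0.006.

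NCOR1 (NCBI Gene ID 9611, chromosome 17 from 15933408 to 16118874, hg19) had 19.93 FPKM with DMSO for 24 h, 15.34 with the lower dose and 14.66 with the higher dose. The 48 h values were 15.54, 18.31 and 14.54. The 24 h DMSO library and the lower dose for 48 h were high, and the other 4 libraries lay between 14.54 and 15.54. The log2 changes of -0.36 and -0.42 after 24 h were -0.018 and -0.079 from the 48 h DMSO library. RefSeq names 4 pseudogenes of NCOR1 with no value of their own in the files, and reads shared with them cannot be told apart.

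The paralogous scaffolds SIN3A and SIN3B changed least with the higher dose for 24 h. SIN3A (NCBI Gene ID 25942, chromosome 15 from 75661720 to 75748124, hg19) had 18.49, 16.84 and 18.30 FPKM in the 24 h libraries with DMSO, lower and higher dose, and 15.61, 18.44 and 16.16 in those of 48 h. SIN3B (NCBI Gene ID 23309, chromosome 19 from 16940198 to 16991164, hg19) had 12.63, 10.85 and 12.89, then 12.75, 15.56 and 13.74. For SIN3B the lower dose held both the lowest value, after 24 h, and the highest, after 48 h. With the higher dose the log2 change of SIN3A was -0.014 after 24 h, or 0.22 from the other DMSO library, and 0.047 after 48 h. For SIN3B these were 0.027, 0.015 and 0.10. With the lower dose for 24 h SIN3A was at -0.13, or 0.10 from the other DMSO library, and SIN3B at -0.20 or -0.22.

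**Figure D2:**
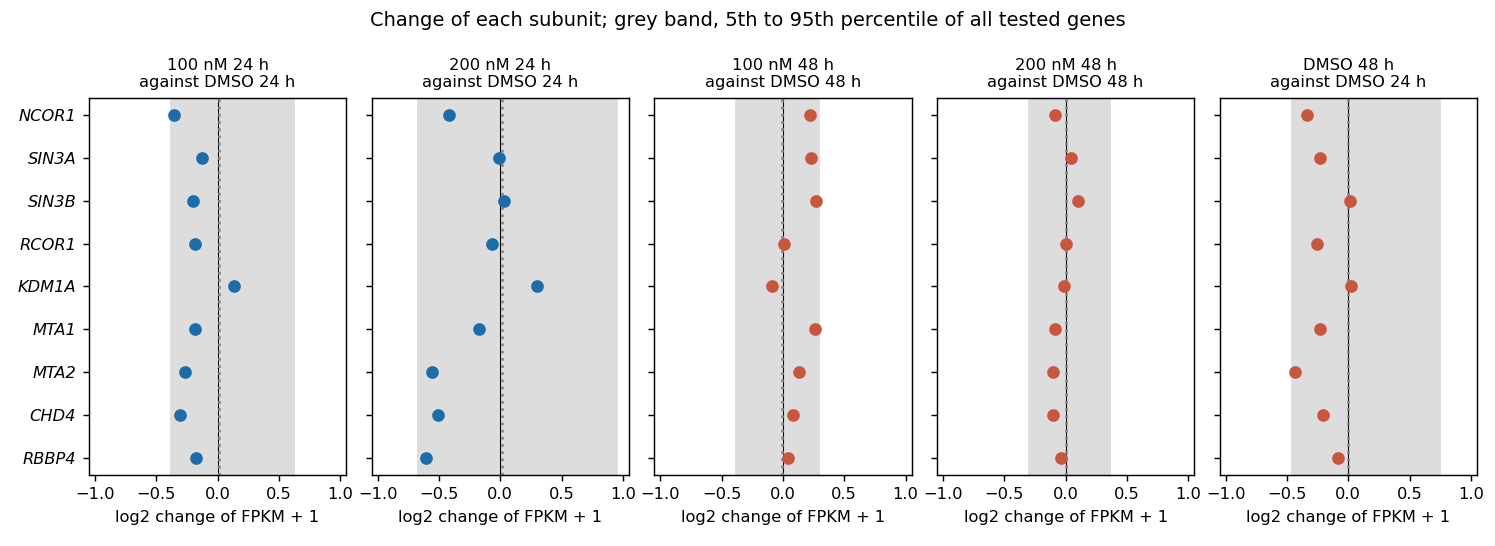
Log2 change of FPKM + 1 (x axis) of each of the 9 genes (y axis) in the 4 comparisons with PCI-24781 and between the DMSO libraries, with the 5th to 95th percentile of all tested genes in grey, their median dotted and no change as a solid line. All points lie inside the grey band, and after 24 h most lie left of 0, as in the comparison of the DMSO libraries.

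Across the 9 genes, 8 were lower and 1 was higher with the lower dose for 24 h, where 48.1% of tested genes were lower. With the higher dose 7 were lower, where 48.6% of tested genes were. After 48 h, 8 were higher with the lower dose, against 47.2% of tested genes, and 6 were lower with the higher dose, against 48.6%, where rescaling to TPM moved KDM1A to the higher side. An exchange of the labels DMSO and 100 nM at 48 h would turn every sign of the lower dose at that time. It would also change every other value that uses the 48 h DMSO library, such as those of the higher dose at 48 h. Such an exchange cannot be told apart from an effect of dose or time in these libraries. The median change of the 9 genes was -0.19 and -0.18 after 24 h and 0.13 and -0.038 after 48 h, while that of all tested genes was between -0.011 and 0.014. Between the DMSO libraries, 7 of the 9 genes were lower after 48 h, with a median of -0.23, where 50.2% of tested genes were lower, and TPM put KDM1A and SIN3B just below 0 as well. Both doses of a time share a DMSO library, so their signs are not independent. From the 48 h DMSO library the medians after 24 h were 0.049 and 0.015, and from the 24 h DMSO library those after 48 h were -0.07 and -0.25. The direction of the median thus changed with the DMSO library in 3 of the 4 comparisons, and the higher dose for 48 h alone was below 0 with either.

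**Figure D3:**
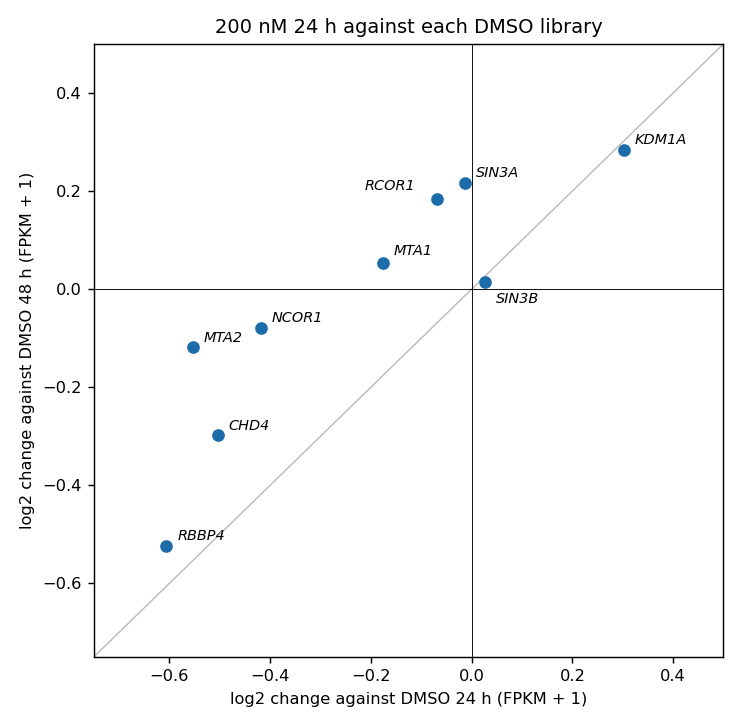
Log2 change of FPKM + 1 with 200 nM for 24 h from the 24 h DMSO library (x axis) and from the 48 h DMSO library (y axis), 1 point per gene, with the line of equal change in grey. RBBP4 (-0.61 and -0.52), CHD4 (-0.50 and -0.30) and KDM1A (0.30 and 0.28) keep their direction, whereas MTA2 (-0.12) and NCOR1 (-0.079) lie near 0 on the y axis.

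Ratios of paralogues within a library do not depend on how that library was scaled. The FPKM ratio of SIN3A to SIN3B was 1.46, 1.55 and 1.42 in the 24 h libraries with DMSO, lower and higher dose, and 1.22, 1.19 and 1.18 in those of 48 h. The 24 h libraries all lay above the 48 h libraries. RCOR1 to RCOR3, its paralogue in CoREST, separated likewise, with 2.09, 1.77 and 1.96, then 1.64, 1.59 and 1.54. GATAD2A to GATAD2B, both of NuRD, separated too, with 2.34, 2.32 and 2.81, then 2.01, 1.7 and 1.98. RBBP4 to RBBP7 had 0.14, 0.133 and 0.107, then 0.145, 0.147 and 0.147, so its 24 h libraries all lay below. These pairs were singled out after their values were seen, among 9 pairs given here.

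KDM1A exceeded KDM1B, its paralogue outside CoREST, by 4.34 times with DMSO for 24 h, 3.30 times with the lower dose and 2.37 times with the higher dose, and by 3.57, 4.15 and 3.13 times after 48 h. KDM1B itself had 10.56, 15.30 and 23.89 FPKM, then 13.01, 10.52 and 14.70. Its log2 change with the higher dose for 24 h was 1.11, past 2-fold, and 0.83 from the 48 h DMSO library, short of 2-fold. The change of KDM1A was under 2-fold from either. The ratio of CHD4 to CHD3 was 1.96, 2.74 and 3.74 in the 24 h libraries and 2.28, 1.61 and 2.93 in those of 48 h. CHD3, the alternative NuRD ATPase, had 26.63 FPKM with DMSO for 24 h, 15.34 with the lower dose and 9.77 with the higher dose, and 19.79, 29.79 and 14.35 after 48 h. Its log2 change of -1.36 with the higher dose for 24 h was the single call at 2-fold among the other subunits listed, where 1.48% of tested genes were at least 2-fold lower. It was -0.95 from the 48 h DMSO library, just short of 2-fold.

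RBBP7, the close relative of RBBP4, exceeded it by 7.14, 7.54 and 9.35 times in the 24 h libraries and by 6.91, 6.82 and 6.82 times in those of 48 h. The highest of these ratios was with the higher dose for 24 h, where RBBP7 had 121.21 FPKM beside 144.75 with DMSO. MTA1 was below MTA2 in every library, with ratios of 0.553, 0.585 and 0.72, then 0.637, 0.70 and 0.645. For the catalytic subunits, HDAC1 exceeded HDAC2 by 2.45 to 3.23 times, with the highest ratio for the lower dose after 48 h.

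**Figure D4:**
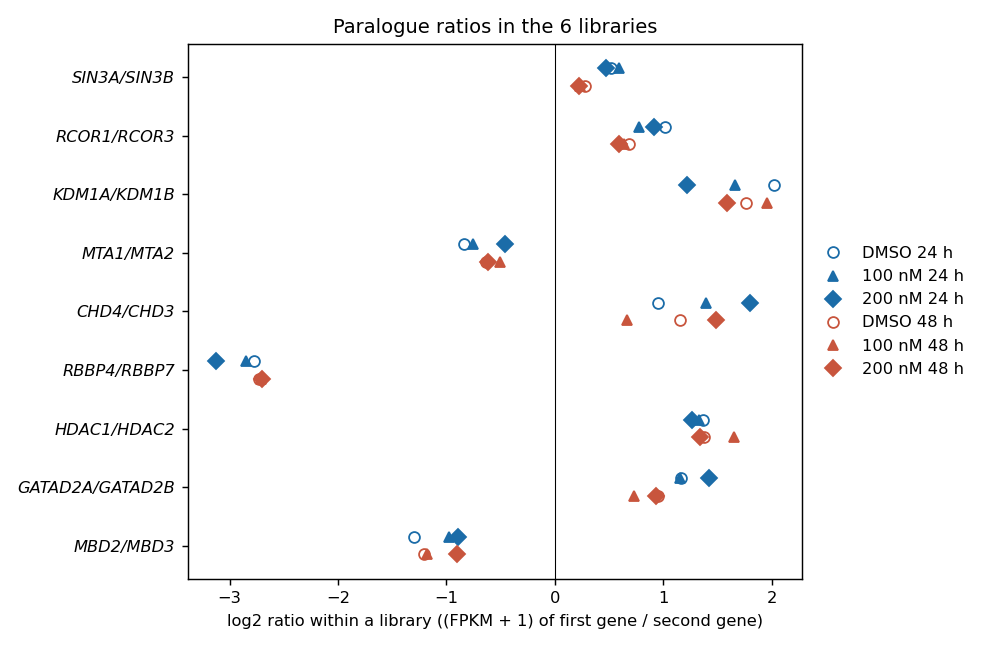
Log2 ratio of (FPKM + 1) between paralogues within each library (x axis) for 9 pairs (y axis), at 24 h in blue and 48 h in red, with open circles for DMSO, triangles for 100 nM and diamonds for 200 nM. SIN3A/SIN3B, RCOR1/RCOR3, GATAD2A/GATAD2B and, by a small margin, RBBP4/RBBP7 separate by time. At 24 h KDM1A/KDM1B is lower and CHD4/CHD3 higher with each dose step.

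Partners of these subunits were read from lists of 43 other genes in all, with RBBP7 in both the SIN3 and the NuRD list. With the higher dose for 24 h, 22 of the 43 were higher and 21 lower, with a median of 0.025, where 51.2% of tested genes were higher. No such share was computed from the 48 h DMSO library, so counts taken from it below have none beside them. Most NCoR partners listed were higher, while NCOR1 was at -0.42 from the matched DMSO library but only -0.079 from the 48 h DMSO library. HDAC3, the catalytic subunit, had 59.29 FPKM with DMSO and 80.15 with the higher dose, a log2 change of 0.43. GPS2 (0.56), TBL1X (0.51) and CORO2A (0.59) were also higher, TBL1XR1 (-0.18) was lower, and the median over the 5 genes was 0.51. Of all tested genes, between 81.5% and 87.5% had a change below that of each of the 4 higher genes. The same 4 genes were higher from the 48 h DMSO library, where the list had a median of 0.49. After 48 h the median of this list was 0.082 and 0.14 with the rising doses.

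The NuRD list held 9 further genes, of which 8 were lower and 1 was higher with the higher dose for 24 h, with a median of -0.25. From the 48 h DMSO library 7 were lower and 1 was higher, with a median of -0.12. With a pseudocount of 0.01 the median from the matched library was -0.415. That value is the change of CHD5 alone, which had 0.03 FPKM with DMSO and 0.02 with the higher dose. With the lower dose all 9 were lower, with a median of -0.062, but from the 48 h DMSO library 4 were higher and 4 lower. These counts include CHD5, which did not pass the FPKM filter. Among the 8 genes that did, 8 were lower with the lower dose and 7 with the higher dose. Of all tested genes, 48.1% and 48.6% were lower in these comparisons. CDK2AP1, a small NuRD subunit, had 98.18, 63.27 and 48.79 FPKM in the 24 h libraries and 68.23, 86.10 and 59.86 in those of 48 h. MBD3, a methyl-CpG-binding-domain subunit, had 54.58, 43.25 and 37.45 FPKM, then 47.82, 49.67 and 38.24. For both genes the 24 h DMSO library was the highest of the 6, and the log2 changes with the higher dose for 24 h were -0.99 and -0.53 from it and -0.48 and -0.34 from the 48 h DMSO library. MBD2, the paralogue of MBD3 in the list, changed less. It had 21.65, 21.45 and 19.69 FPKM in the 24 h libraries, with log2 changes of -0.013 and -0.13. GATAD2B, with 11.83 to 14.70 FPKM, had the most positive median change of the list over the 4 comparisons, at 0.045, and CHD3 the most negative, at -0.60. After 48 h, 6 of the 8 genes that passed the filter were higher with the lower dose, against 47.2% of tested genes. With the higher dose 6 were lower, against 48.6%. CHD5 was at or below 0.03 FPKM in every library.

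In the SIN3 list, 10 of 17 genes were higher and 7 lower with the higher dose for 24 h, near the 51.2% of tested genes that were higher. The median of the list was 0.11, or 0.002 from the 48 h DMSO library. HDAC1 had log2 changes of 0.12 and 0.01 with that dose after 24 h and 48 h, and HDAC2 had 0.21 and 0.043. The gene with the most negative median change was BRMS1L, at -0.36, which had 6.46, 4.01 and 3.38 FPKM, then 4.44, 3.89 and 4.36, so the 24 h DMSO library stood above all the others. SUDS3, which helps SIN3A to hold its deacetylases, had the most positive median over the 4 comparisons, at 0.15, with values between 12.47 and 14.88 FPKM.

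In the CoREST list, 6 of 10 were higher and 4 lower with the higher dose for 24 h, with a median of 0.042, where 51.2% of tested genes were higher. The direction turned from the 48 h DMSO library, with 2 higher, 8 lower and a median of -0.185. PHF21A, which reads unmethylated histone H3 lysine 4, had 7.06, 9.02 and 9.14 FPKM in the 24 h libraries and 10.85, 12.51 and 10.89 in those of 48 h. CTBP1, a corepressor bound to CoREST, had 40.10, 34.97 and 31.74 FPKM, then 36.34, 40.96 and 33.64. PHF21A was lowest and CTBP1 nearly highest with DMSO for 24 h. With the higher dose for 24 h the log2 change of PHF21A was 0.33, but -0.225 from the 48 h DMSO library. Of the 3 genes of MiDAC, a further HDAC1 and HDAC2 complex, MIDEAS was higher and DNTTIP1 and TRERF1 were lower with the higher dose for 24 h, with changes of 0.21, -0.27 and -0.30.

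**Figure D5:**
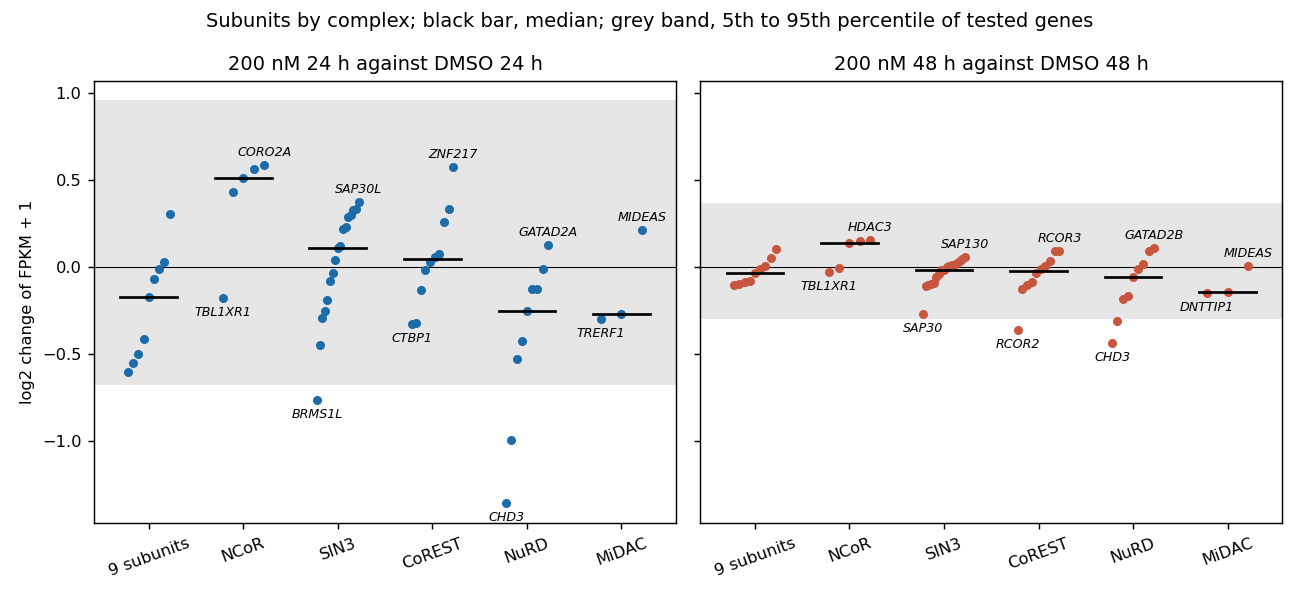
Log2 change of FPKM + 1 (y axis) of the 9 genes and of the other subunits by complex (x axis) with 200 nM for 24 h (left) and 48 h (right), with the median of each list as a bar and the 5th to 95th percentile of tested genes in grey. After 24 h CHD3, CDK2AP1 and BRMS1L lie below the grey band, and the NCoR list has its median at 0.51.

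REST, the factor that brings CoREST to neuronal genes, had 7.46, 6.80 and 6.51 FPKM in the 24 h libraries and 6.40, 6.0 and 5.48 in those of 48 h. The higher dose was the lowest library of each time. After 24 h with that dose the log2 change of REST was -0.17, but 0.021 from the 48 h DMSO library. Among the 9 recruiting repressors found of 10 listed, 4 were higher and 5 lower with the higher dose for 24 h, where 48.6% of tested genes were lower. Their median was -0.041, or -0.208 from the 48 h DMSO library. MXI1, a partner of MAX that recruits SIN3, had a log2 change of 1.31 there, from 8.51 to 22.57 FPKM, and 4.47% of tested genes were at least 2-fold higher. It also had 26.41 FPKM with DMSO for 48 h, above the value with the higher dose for 24 h, which was at -0.22 from that library. SNAI1, which recruits KDM1A, had 0.29, 0.60 and 1.57 FPKM, then 0.88, 0.68 and 1.99. Its log2 changes with the rising doses for 24 h were 0.31 and 0.99, but -0.23 and 0.45 from the 48 h DMSO library.

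Of 15 genes known as targets of REST, 11 were higher, 1 was lower and 3 were equal with the higher dose for 24 h. Only 6 reached an FPKM of 1 in either library of that comparison. From the 48 h DMSO library 9 of the 15 were higher and 4 lower, with a median of 0.041. SYP, a synaptic vesicle protein, had 0.65, 1.58 and 6.40 FPKM in the 24 h libraries and 0.73, 0.77 and 2.65 in those of 48 h. It was past 2-fold with the higher dose at both times, with log2 changes of 2.17 and 1.08, and at 2.10 after 24 h from the 48 h DMSO library. L1CAM, a neural adhesion molecule, had 0.77, 2.92 and 5.8 FPKM, then 4.0, 2.17 and 8.71, with log2 changes of 1.15 and 1.94 after 24 h and -0.66 and 0.96 after 48 h. Its 24 h changes from the 48 h DMSO library were -0.35 and 0.44, so both calls at 2-fold ended and the lower dose turned sign. The median of the 15 genes was 0.084 with the higher dose for 24 h. Over the 6 that reached an FPKM of 1 it was 0.67, and all 6 were higher, where 51.2% of tested genes were. SYP and L1CAM reached that FPKM only in the treated library, so this count and median are partly set by the filter. From the 48 h DMSO library CELSR3 and VGF, 2 of these 6, were lower, at -0.014 and -0.185. With pseudocounts of 0.1 and 0.01 the median of the 15 was 0.603 and 0.654. CELSR3 stayed between 1.04 and 1.58 FPKM.

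The profiles most like those of the subunits with the widest ranges were sought by the root mean square difference of log2(FPKM + 1) over the 6 libraries, each gene centred on its mean, among 11418 genes. For RBBP4 these were ARPIN (0.031), NSUN4 (0.034) and NCOA2 (0.035). ARPIN had 9.16, 8.01 and 5.97 FPKM in the 24 h libraries and 8.67, 9.35 and 8.24 in those of 48 h, so it too was lowest with the higher dose for 24 h. For MTA2 they were ZNF142 (0.013), NOC4L (0.027) and GTF2H3 (0.029). GTF2H3 had 31.37, 25.72 and 20.54 FPKM, then 22.03, 24.07 and 21.60, and was highest with DMSO for 24 h, as MTA2 was. These are descriptions over 6 libraries that share their DMSO references.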

How the data were processed

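RNA from MDA-MB-231 cells, 1 library per condition, was sequenced by a company after mRNA enrichment or rRNA depletion. The deposited values are FPKM per gene, which the authors gave to 2 decimals. The submitters' processing notes name Bowtie2, RSEM and hg19. Versions and filters are not given in the sources used here. Gene IDs were named from the RefSeq table of GRCh38.p14 (16585 of 16623), promoters come from RefSeq, and coordinates are those of the files. RSEM divides shared reads between transcripts by estimation, so paralogues and pseudogenes can influence each other. The log2 change used a pseudocount of 1, which understates changes of genes with low values, and a call needed a 2-fold change and an FPKM of 1 or more in either library. No count test was run and no p-value computed. Depth was inferred from values of single-transcript genes of 500 to 1500 bases, with lengths from GENCODE release 29, by the number of fragments that put low values nearest to whole multiples, and is approximate.

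The genes, lists, pairs and tests were chosen with earlier results of these data known. Named genes were the 9 subunits, their paralogues, HDAC1, HDAC2, HDAC3, REST, and in each list the genes with the largest and smallest median change over the 4 comparisons or past 2-fold. For the 2 subunits with the widest range, the 3 genes with the closest profiles were named. CDK2AP1, MBD2, MBD3, GPS2, TBL1X, TRERF1, CHD5, GATAD2A and VGF were added after their values were seen. CBFA2T3 was listed and not found, and a further listed gene is not reported here. Calls and depth were checked on simulated data. The tools were matplotlib 3.10.9, pandas 2.3.3 and numpy 2.4.6 under Python 3.11.15. Alternatives were pseudocounts of 0.1 and 0.01, TPM, median-of-ratios scaling, other DMSO references, a 1.5-fold threshold and other filters.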

Additional observations from a re-analysis of the deposited data

Results flagged for a closer look

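The genes given here drew attention because the signs of both doses ran one way after 24 h and the other way after 48 h. Each sign was taken from the DMSO library of that hour. The difference between the times was not tested, since each condition has 1 library. An exchange of the labels DMSO and 100 nM at 48 h would reverse the 100 nM values of that time. It would also give the 200 nM values of that time another reference, so the pattern flagged here depends on these labels. Such an exchange cannot be told apart from an effect here. KDM1A had log2 changes of 0.137 with 100 nM and 0.302 with 200 nM after 24 h, then -0.088 and -0.012, the last of which turned just above 0 with TPM. SIN3A had -0.128 and -0.014 after 24 h, then 0.227 and 0.047. RCOR1 had -0.187 and -0.069 after 24 h, then 0.008 and 0.006. Its 48 h changes were 0.563% and 0.433%, below its counting error of 2.01% to 2.16% in those libraries, so their sign gives no direction. The same holds for KDM1A with 200 nM for 48 h (-0.862%, counting error at least 2.02%). It also holds for SIN3A with 200 nM for 24 h (-1.03%, counting error at least 2.42%). For SIN3A and RCOR1 the DMSO libraries differed by -0.231 and -0.252, more than any of their 24 h changes, and for KDM1A by 0.018.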

How the results depend on the processing

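No paired analysis was possible because the labels number no replicates within a condition, which has a single library, and no replicate could be left out for the same reason. A fit of dose with time as a block was not run, since its only measure of error would be the difference between the dose effects at the 2 times. Counting error limits differences under about 5.0% in the least covered value. All 45 changes of single subunits moved by less than 0.1 with either smaller pseudocount, TPM or median-of-ratios scaling, and the sign changed for 3 of them, all under 0.1, with TPM. From the mean of both DMSO libraries, 24 of 36 moved by more than the limit of 0.1 and 7 changed sign. From the DMSO library of the other time, 24 moved and 16 changed sign, 8 of these from at least 0.1. Other references could not be run for the DMSO comparison. The cause of the differences below was not tested, except that a smaller pseudocount by construction widens changes of low values. Alternatives for lists and ratios were chosen after seeing the data.

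Counts of all genes follow, first higher and then lower, for 24 h at the lower and the higher dose, 48 h at the lower and the higher dose, and the DMSO libraries. In the report's setting they were 155/15, 521/172, 7/47, 24/7 and 286/15. A pseudocount of 0.1 gave 383/41, 880/283, 32/121, 103/25 and 564/42, and 0.01 gave 418/50, 935/297, 33/140, 126/27 and 589/48. A 1.5-fold threshold gave 636/144, 1462/884, 58/202, 178/54 and 975/223, with 1 of the 9 subunits lower at the higher dose for 24 h. TPM gave 282/27 for the lower dose and 24 h, 13/75 and 59/12 for 48 h, and 435/33 for DMSO. Where both libraries had to reach an FPKM of 1, 99 and 323 genes were higher after 24 h, 2 were higher and 29 lower with the lower dose for 48 h, and 4 were lower with the higher dose. From the mean of the DMSO libraries, 22 were higher with the lower dose for 24 h, and the rest were 214/108, 18/6 and 167/11. From the other DMSO library they were 7/59, 101 higher, 184/29 and 549/53.

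The median of the 9 subunits, in the order of the 4 comparisons, was -0.067, -0.062, 0.002 and -0.12 from the mean of the DMSO libraries and 0.049, 0.015, -0.07 and -0.246 from the other one. The median of the recruiting repressors from that mean was -0.049 and 0.179 with the lower dose for 24 h and 48 h, and from the other library -0.202, -0.208, 0.336 and 0.19. From the other library the CoREST median was -0.099, -0.185, 0.303 and 0.152. The NuRD median from it was -0.12 and -0.184 with the higher dose for 24 h and 48 h, and the SIN3 median 0.002 with the higher dose for 24 h. In that comparison the NuRD median was -0.415 with a pseudocount of 0.01, a value set by CHD5, which was at or below 0.03 FPKM. The REST target median was 0.379, 0.603, -0.158 and 0.248 with a pseudocount of 0.1, 0.642, 0.654, -0.234 and 0.334 with 0.01, and 0.193 and 0.224 with TPM for the higher dose.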
